A study of Homo sapiens with 6 samples.

Results

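The AP-1, early response and MAPK feedback genes are a list of 57 genes, chosen by name with earlier results of these data known. Many of their products carry growth factor signals through RAS and the ERK kinases to the nucleus, or damp such signals. The genes were read from a table of 57820 genes as rows matched by symbol. Of the 57 genes, 56 were matched to a row, and DUSP14 was not analysed here. In all, 51 passed a filter on low counts and were tested, and the other 5 (FOSB, BATF3, MAF, EGR2 and EGR3) were not. The 6 RNA-seq libraries came from the established bladder cancer line J82, 3 of them control and 3 FOXC1 KO. FOXC1 is a transcription factor of the forkhead type, and the comparison asked which transcripts differ when it is disrupted. Per the labels and the study's methods, FOXC1 KO cells carried the lentiviral CRISPR/Cas9 vector LentiCRISPRv2 with a guide to FOXC1 and had been selected with puromycin, and the control group was the vector control of the same line. Both groups were grown in DMEM with 10% FBS. The methods speak of knockout clones without giving their number, and nothing says that the 3 libraries of a group came from separate cultures, so p-values measure only the spread between these libraries.

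AP-1 is a transcription factor made of a pair of proteins with basic leucine zippers, usually one of the FOS family and one of the JUN family. Serum, growth factors and stress switch on FOS, JUN, EGR1 and other early response genes within minutes. For some of these genes, such as FOS and EGR1, this runs in part through factors of the ETS type such as ELK1 that ERK phosphorylates. ERK signalling also induces its own brakes: the dual-specificity phosphatases (DUSP), which take phosphate off MAP kinases, and the Sprouty and SPRED proteins, which act upstream near RAS and RAF. In bladder cancer this pathway is often active through mutated growth factor receptors or RAS genes.

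Total counts ranged from 22900531 to 25013311 in the control libraries and from 18408134 to 25350908 in the FOXC1 KO libraries. Levels are given as CPM (counts scaled to a common library total) after TMM normalisation. A gene was called when its adjusted p in edgeR's quasi-likelihood test was under 0.05 over all 15647 genes tested and its fold change was over 1.3. The FOXC1 transcript itself was 18.2 ± 1.21 CPM in control and 22.5 ± 1.495 CPM in the FOXC1 KO libraries (SD, n = 3 each) (log2 fold change 0.30, adjusted p = 0.0127), so it was not lower. Counts per gene cannot show an edit in the gene, so this level does not decide whether FOXC1 was disrupted. The study reports less FOXC1 protein in its knockout cells by Western blot, which was not analysed here. Every direction that follows refers to the libraries labelled FOXC1 KO. Beside these comparisons, markers of cell types were read, where 8.39% of all genes tested were called lower and 7.57% higher. Of 15 urothelial and epithelial markers, 7 were tested, of which 6 were lower and 0 were higher. The summed level of these markers was 3177.9 to 3999.8 CPM in control and 2487.6 to 2764.7 CPM in FOXC1 KO. KRT5, KRT20, CDH1 and the uroplakins were among the 8 markers that were not tested for low counts, and UPK3A had 0 counts in every library. Fibroblast markers went both ways, with 1 of 4 tested higher (COL1A1) and 2 lower (COL1A2 and DCN), and summed to 167 to 187 CPM in control and 107 to 122 CPM in FOXC1 KO. Immune markers summed to 4.34 to 4.81 and 6.38 to 7.39 CPM, with 1 of 3 tested higher (CD14). Endothelial markers summed to 0.59 to 0.90 and 1.55 to 1.90 CPM, with 1 of 2 tested higher (CDH5), and KDR had a log2 fold change of -0.14. Of 4 mesenchymal markers, 1 was higher (ZEB1) and 0 were lower, and they summed to 1685.6 to 1828.7 and 1721.6 to 1984.0 CPM. CD3E had 0 counts in every library. The part of these markers in the results was not tested. All libraries came from the J82 line, and in bulk RNA fewer cells with a marker and less of its RNA per cell cannot be told apart.

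Of the 51 tested genes, 10 were called (19.6%), against 16.0% of all genes tested. Higher in the FOXC1 KO libraries were JUN, IER3, ETV5, DUSP5, SPRY4 and ERRFI1 (6 genes, 11.8%, against 7.57% of all genes). Lower were DUSP10, SPRY1, SOCS3 and BTG2 (4 genes, 7.84%, against 8.39%). Most differences were small, and only IER3 (higher) and BTG2 (lower) were past a fold change of 2, which 2.02% of all genes passed upward and 2.05% downward. A further 12 genes had an adjusted p under 0.05 with a fold change under 1.3, 11 of them higher and 1 lower. Counted without the fold threshold, 22 of 51 (43.1%) passed, against 29.4% of all genes. For 29 of 51 genes (56.9%) the ranges of control and FOXC1 KO were separate, against 41.3% of all genes. The median log2 fold change was 0.14 over the 51 genes and -0.00084 over all genes, and 35 of the 51 lay above zero (68.6%, against 49.9%). Regardless of sign, the median size of the log2 fold change was 0.193 over the 51 genes and 0.183 over all genes. A mean of at least 50 counts was reached by 46 of the members and by 12343 genes in all. The part of expression level in these shares was not tested.

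**Figure D1:**
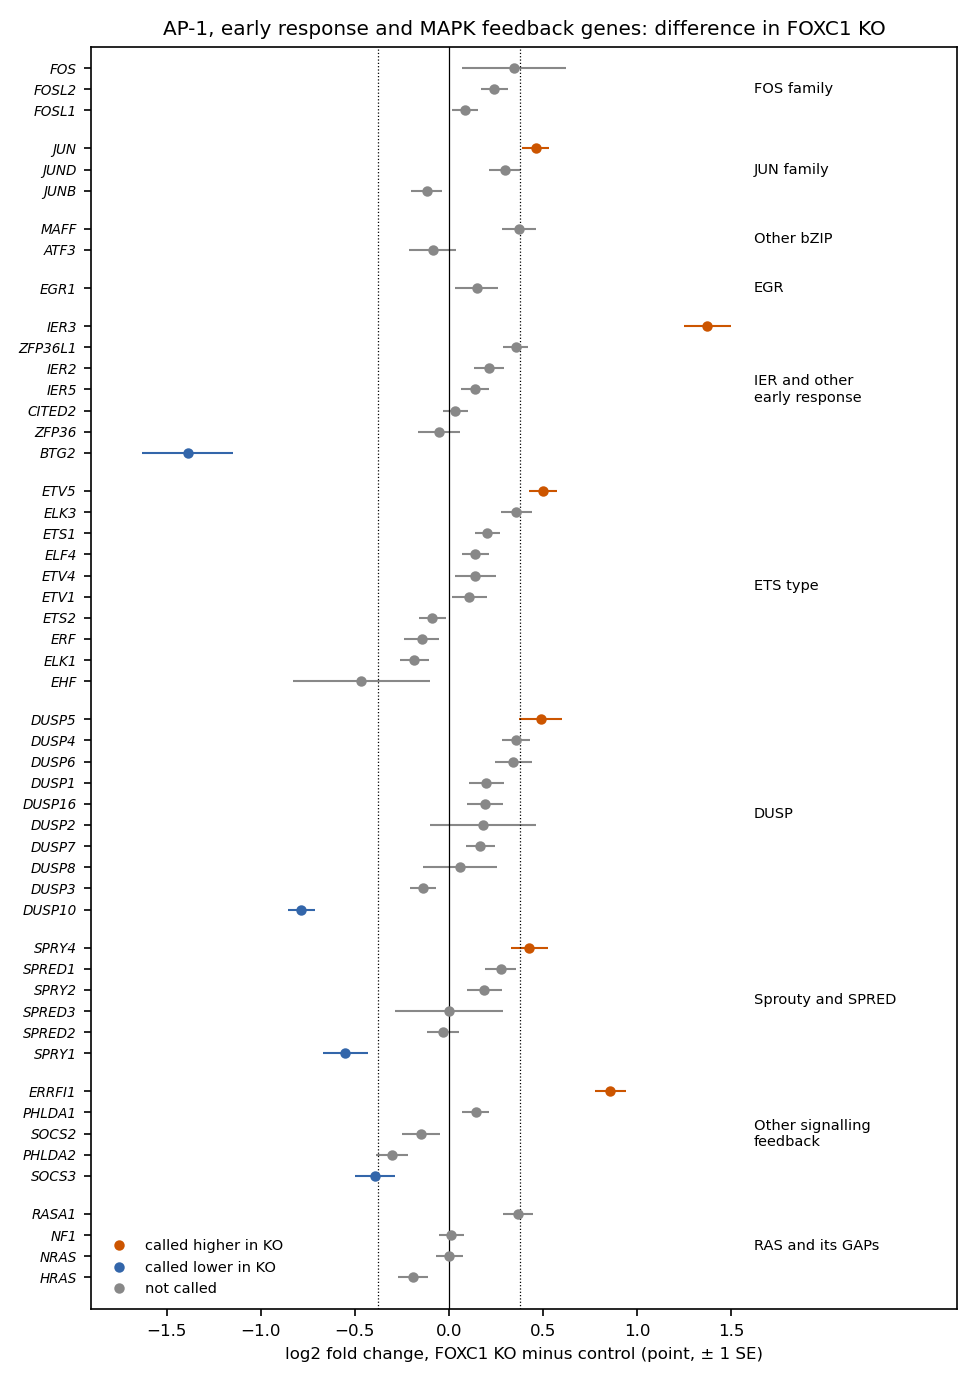
Log2 fold change (FOXC1 KO minus control, horizontal axis) of the 51 tested genes, grouped by role, with lines of 1 SE on each side, dotted lines at the fold threshold of 1.3 and the called genes coloured. IER3 lies farthest to the right at 1.37 and BTG2 farthest to the left at -1.39, while most genes lie close to zero.

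The promoters of 5 genes are shown because their letters differ in the motifs that early response genes are known for, and because 2 of them, JUN and DUSP10, were called in opposite directions. Windows ran from 250 bases before the start site to 50 bases after it (RefSeq, GRCh38.p14), a different build from that of the counts, and 46 of the members had 72 windows among 35116 in all. Printed are the 250 bases before the start site, 5′ to 3′ on the strand of the gene, with motif matches in capitals. In JUN (chr1:58784048-58784297, minus strand) and DUSP10 (chr1:221742090-221742339, minus strand) the capitals mark TGACATC, which differs from the cyclic AMP response element TGACGTC by a single letter and was searched for after the sequences had been seen. In JUND (chr19:18281623-18281872, minus strand) and MAFF (chr22:38201744-38201993, plus strand) they mark TGACGTC on either strand, and 2 matches that overlap as a palindrome are printed as one run. In EGR1 (chr5:138465229-138465478, plus strand) they mark the CArG box to which serum response factor binds. DUSP10 (chr1:221736901-221737150) and MAFF (chr22:38202770-38203019) each had a further window, not printed, that held none of the motifs searched.
JUN: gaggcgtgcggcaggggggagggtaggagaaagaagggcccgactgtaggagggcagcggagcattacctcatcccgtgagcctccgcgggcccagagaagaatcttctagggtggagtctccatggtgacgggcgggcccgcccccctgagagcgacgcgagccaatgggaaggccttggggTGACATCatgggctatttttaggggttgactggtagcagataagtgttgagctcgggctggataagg
DUSP10: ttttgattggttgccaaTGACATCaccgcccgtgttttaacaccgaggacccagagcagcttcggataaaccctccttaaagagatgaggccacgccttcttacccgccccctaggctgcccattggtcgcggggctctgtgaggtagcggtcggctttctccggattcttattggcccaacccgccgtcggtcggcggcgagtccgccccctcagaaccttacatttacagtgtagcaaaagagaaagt
JUND: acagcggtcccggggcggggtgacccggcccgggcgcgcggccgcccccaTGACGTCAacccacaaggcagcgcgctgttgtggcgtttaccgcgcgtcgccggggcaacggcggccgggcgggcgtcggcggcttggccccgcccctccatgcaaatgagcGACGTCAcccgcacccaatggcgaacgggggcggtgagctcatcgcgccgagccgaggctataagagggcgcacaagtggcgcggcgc
MAFF: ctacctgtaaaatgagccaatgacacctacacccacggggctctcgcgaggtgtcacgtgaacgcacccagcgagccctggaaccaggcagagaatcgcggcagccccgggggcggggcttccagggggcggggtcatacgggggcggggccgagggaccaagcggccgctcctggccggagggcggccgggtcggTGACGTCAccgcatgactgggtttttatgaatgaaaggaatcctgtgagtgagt
EGR1: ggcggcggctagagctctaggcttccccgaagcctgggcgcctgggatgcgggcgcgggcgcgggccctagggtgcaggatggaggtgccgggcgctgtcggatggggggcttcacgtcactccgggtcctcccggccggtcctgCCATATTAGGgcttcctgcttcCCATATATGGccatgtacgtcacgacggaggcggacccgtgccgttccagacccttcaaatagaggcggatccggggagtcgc

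Over both strands, TGACGTC was found in 10 of 72 member windows (13.9%) and 3.45% of all windows. Those windows belonged to SPRED2, DUSP1, EGR2, DUSP8, ZFP36L1, MAF, NF1, JUND, ERF and MAFF. EGR2 and MAF were not tested and the other 8 genes were not called, while 3 of the called genes had no window, so nothing is read from this against the 16.0% of all genes that were called. The CArG box, written CC, 6 of A or T, GG, was found in 2 of 72 (2.78%, against 1.29%), with matches at -105 and -83 bases from the start site of EGR1 and a match in EGR2. The AP-1 site TGANTCA was found in 4 of 72 windows (5.56%, against 7.71%), the ETS site CCGGAAG in 5 (6.94%, against 10.3%) and the EGR site GCGTGGG in 5 (6.94%, against 6.98%). Among the called genes, SPRY1 held the ETS site and SOCS3 the EGR site, and a further window of each gene lacked it. The forkhead core TGTTTAC was found in 3 of 72 windows (4.17%, against 3.42%), those of NRAS, EHF and JUNB, and in none of the 10 windows of the 7 called genes that had one. TGACATC was found in 3 (4.17%, against 4.22%), at -67 in JUN, at -233 in DUSP10 and at -123 in ATF3. A match is a description of these letters and was not tested as a binding site.

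Among the subunits of AP-1, JUN was the called member. JUN, on chr1:59242517-59249720 of hg19, pairs with FOS proteins and can also pair with itself. Its level was 179, 166 and 181 CPM in the control libraries and 259.5, 239.8 and 224 CPM in the FOXC1 KO libraries. Every FOXC1 KO library lay above every control library. The means were 175 ± 8.14 and 241 ± 17.95 CPM (SD, n = 3 each), a 1.38-fold difference (log2 fold change 0.46, SE 0.07, adjusted p = 1.08e-05). JUND, the JUN protein most linked to resting cells, had an adjusted p under the threshold but a smaller fold change (62.7 ± 7.57 to 76.9 ± 6.47 CPM, log2 fold change 0.30, adjusted p = 0.00832). JUNB had a log2 fold change of -0.12 (adjusted p = 0.295), and its groups overlapped.

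In the FOS family 0 genes were called, and FOSL2 alone passed the adjusted p (log2 fold change 0.24, adjusted p = 0.0121). FOS itself was near the lower limit of detection, with 12 to 25 counts in a library. It was read at 0.535, 0.778 and 0.943 CPM in control and at 0.924, 0.991 and 0.977 CPM in FOXC1 KO, and the groups overlapped. Its log2 fold change was 0.35 with a 95% interval from -0.22 to 0.91 (adjusted p = 0.376). FOSL1, which lasts longer than FOS after a stimulus, had a log2 fold change of 0.08 (adjusted p = 0.386). FOSB, at 0.27 ± 0.080 CPM in control and 0.36 ± 0.17 CPM in FOXC1 KO, was too low to test.

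Per length of merged exons, on the scale of CPM per kilobase, FOSL1 stood first in both groups, at 122 ± 6.01 in control and 129.9 ± 6.07 in FOXC1 KO. JUN was next at 48.3 ± 2.25 and 66.5 ± 4.95, followed by JUND at 32.5 ± 3.92 and 39.9 ± 3.36. FOSL2 (22.2 ± 1.13 and 26.2 ± 2.04) and JUNB (20.5 ± 1.34 and 18.9 ± 0.59) followed, and their ranges overlapped in control but not in FOXC1 KO. FOS and FOSB came last, at 0.24 and 0.048 in control. FOSL1 made up 49.7% of the summed level of the 7 genes in control and 46.1% in FOXC1 KO, and JUN 19.6% and 23.6%. The order of these 7 genes was the same with the length of the canonical transcript of each.

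**Figure D2:**
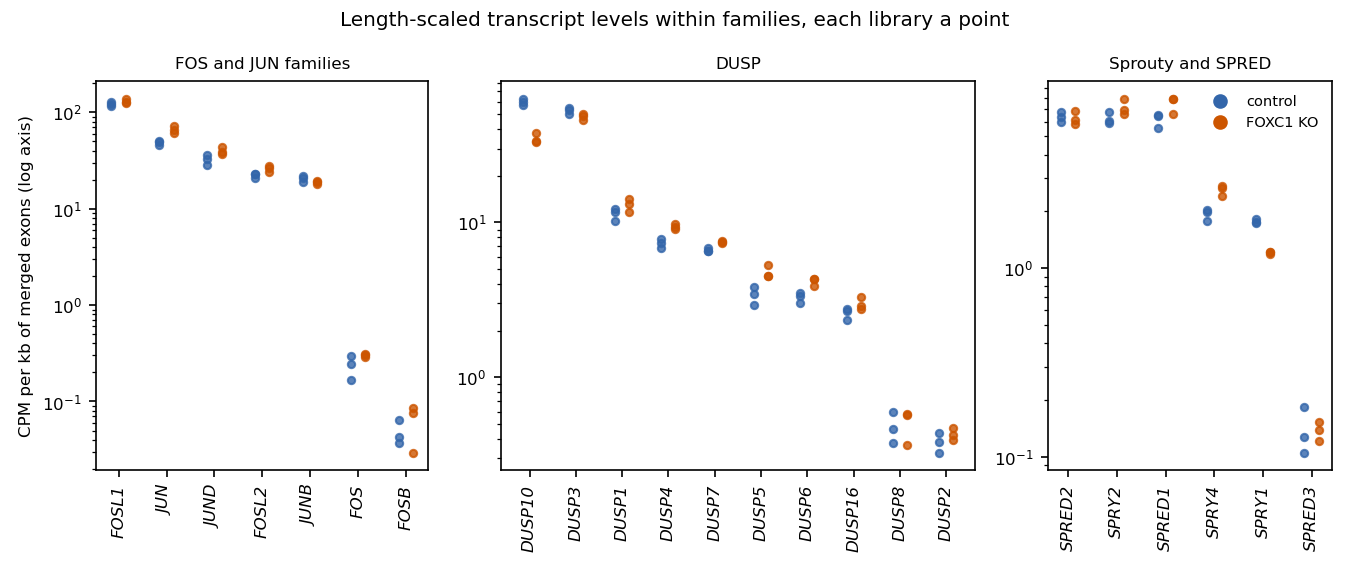
Level in CPM per kilobase of exon (logarithmic axis) of the FOS and JUN family, DUSP and Sprouty and SPRED genes, with a point for each library and the groups in separate colours. FOSL1 is the highest of the FOS and JUN genes in both groups, and DUSP10 lies at 59.8 in control and 34.8 in FOXC1 KO, where DUSP3 is at 48.1.

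Of the other leucine zipper proteins, MAFF, a small MAF protein that pairs with larger partners, was at 24.5 ± 2.47 CPM in control and 31.7 ± 2.33 CPM in FOXC1 KO (log2 fold change 0.37, adjusted p = 0.00213), short of the fold threshold. ATF3, a stress-induced factor, had a log2 fold change of -0.09 (adjusted p = 0.654). BATF3 and MAF stayed under 1 CPM in every library and were not tested. Of the EGR genes, which encode zinc finger factors, EGR1 made up 98.2% of the summed level per kilobase in control. EGR1 was at 10.2, 10.2 and 9.43 CPM in control and at 9.67, 13.04 and 10.1 CPM in FOXC1 KO. The groups overlapped, with a log2 fold change of 0.15 and a 95% interval from -0.09 to 0.38 (adjusted p = 0.359), and the sign depended on FOXC1 KO replicate 2 (-0.0048 without it). EGR2 and EGR3 had at most 0.267 CPM in any library.

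The early response genes held the largest fold changes of the list in both directions. IER3, whose product counters cell death and modulates ERK signalling, lies on chr6:30710976-30712325. It was at 3.57, 3.60 and 3.89 CPM in control and at 9.94, 10.1 and 8.71 CPM in FOXC1 KO. The groups were far apart beside the spread within each, at 3.69 ± 0.18 and 9.57 ± 0.75 CPM (SD, n = 3 each), a 2.59-fold difference (log2 fold change 1.37, SE 0.12, adjusted p = 8.26e-10). Its exons overlap those of IER3-AS1 on the other strand by up to 440 bases, and without a stated strand setting the reads of the pair cannot be told apart.

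BTG2, an antiproliferative gene induced by p53 and by growth signals, lies on chr1:203274619-203278730 and fell. It was at 2.01, 1.60 and 1.81 CPM in control and at 0.652, 0.753 and 0.637 CPM in FOXC1 KO. All FOXC1 KO values were under all control values, although they rest on 12 to 19 counts against 39 to 46. The mean went from 1.80 ± 0.20 to 0.68 ± 0.063 CPM (SD, n = 3 each), 2.62-fold lower (log2 fold change -1.39, SE 0.24, adjusted p = 5.56e-05). Among the other 5 genes of this group, ZFP36L1, which binds and destabilises AU-rich mRNAs, went from 218 ± 2.45 to 279 ± 6.39 CPM (log2 fold change 0.36, adjusted p = 0.000129), and IER2 had a log2 fold change of 0.21 (adjusted p = 0.0402), both under the fold threshold. IER5, CITED2 and ZFP36 did not pass, with log2 fold changes of 0.14, 0.035 and -0.05.

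**Figure D3:**
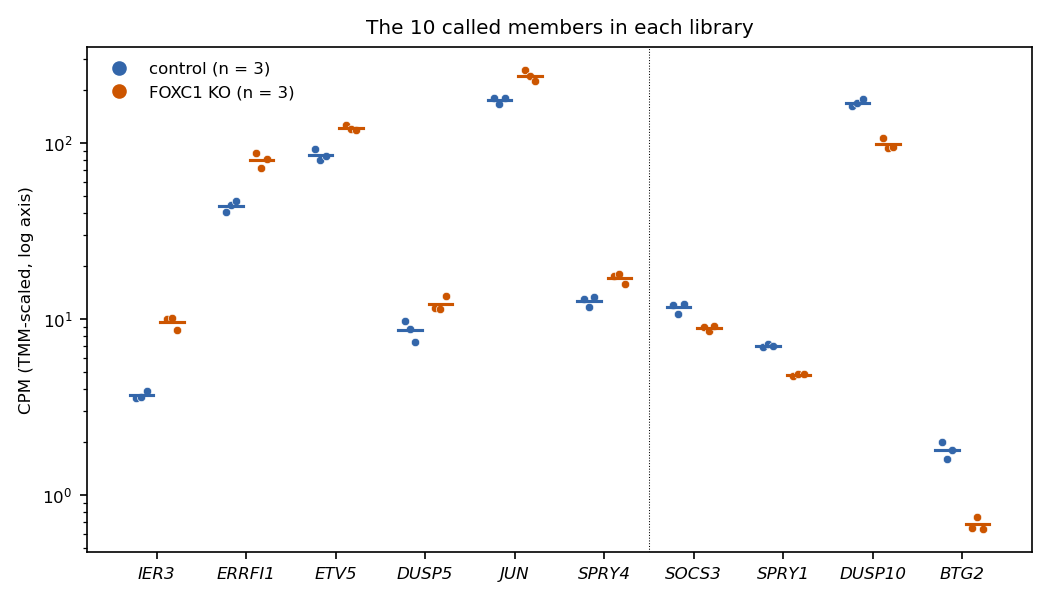
CPM in each library (points, logarithmic axis) of the 10 called genes in control and FOXC1 KO, with a bar at the mean of 3 libraries. In each of the 10 genes the highest value of the lower group is under the lowest value of the other group, from BTG2 at 0.68 and IER3 at 9.57 CPM to JUN at 241 CPM in FOXC1 KO.

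Of the 10 ETS-type genes tested, 1 was called. ETV5, an activator of the PEA3 group that is itself induced by ERK signalling, lies on chr3:185764103-185828107. Its level was 92.2, 80.3 and 84.1 CPM in control and 126, 119 and 118 CPM in FOXC1 KO, without overlap. The means were 85.5 ± 6.11 and 121 ± 4.25 CPM (SD, n = 3 each), a 1.41-fold difference (log2 fold change 0.50, SE 0.07, adjusted p = 4.23e-06). Its relatives ETV1 and ETV4 had log2 fold changes of 0.11 (adjusted p = 0.399) and 0.14 (adjusted p = 0.364), and the groups of each overlapped. ETS1 (log2 fold change 0.20, adjusted p = 0.0224) and ELK3 (log2 fold change 0.36, adjusted p = 0.00125) passed the adjusted p under the fold threshold. The remaining 5 did not pass. ELK1, the ERK substrate, and ERF, a repressor that ERK expels from the nucleus, had log2 fold changes of -0.18 and -0.15, ETS2 of -0.09 and ELF4 of 0.14. EHF, an epithelial ETS factor, was under 1 CPM in every library (log2 fold change -0.47, 95% interval -1.21 to 0.28).

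The phosphatases that switch off MAP kinases differed among themselves. DUSP10, which acts mainly on p38 and JNK, lies on chr1:221874766-221915431 and fell. It was at 161, 169 and 177 CPM in control and at 106, 94.0 and 94.9 CPM in FOXC1 KO, with no overlap. The mean went from 169 ± 7.58 to 98.4 ± 6.74 CPM (SD, n = 3 each), 1.72-fold lower (log2 fold change -0.78, SE 0.07, adjusted p = 1.16e-09). DUSP10 was the only called member with a called flanking gene, meaning the nearest tested gene on each side. HLX, 816365 bases away, and LINC02474, 224252 bases away, were both higher in FOXC1 KO, the opposite direction. HLX and LINC02474 were the 2 called among 20 flanking genes of the 10 called members, while 16.0% of all genes tested were called.

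DUSP5, a nuclear phosphatase of ERK on chr10:112257665-112271291, rose. It was at 9.76, 8.80 and 7.39 CPM in control and at 11.5, 11.4 and 13.4 CPM in FOXC1 KO. The groups did not overlap, at 8.65 ± 1.19 and 12.1 ± 1.16 CPM (log2 fold change 0.49, SE 0.11, adjusted p = 0.00162). DUSP6, the cytoplasmic phosphatase of ERK, was at 11.6, 13.5 and 12.9 CPM in control and at 16.6, 15.02 and 16.6 CPM in FOXC1 KO. Its groups did not overlap either, but its 1.27-fold difference was short of the fold threshold (log2 fold change 0.34, SE 0.10, adjusted p = 0.00902). DUSP4, another nuclear ERK and JNK phosphatase, was likewise short of it (53.4 ± 3.70 to 68.4 ± 2.61 CPM, log2 fold change 0.36, adjusted p = 0.000646). DUSP1, DUSP2, DUSP3, DUSP7, DUSP8 and DUSP16 did not pass, with log2 fold changes from -0.14 (DUSP3) to 0.20 (DUSP1).

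Per kilobase of merged exon, DUSP10 and DUSP3 were the highest phosphatases in both groups. DUSP10 was at 59.8 ± 2.68 in control and 34.8 ± 2.38 in FOXC1 KO, and DUSP3 at 52.9 ± 2.26 and 48.1 ± 1.86. DUSP10 thus went from 40.3% to 27.7% of the summed level of the 10 phosphatases, and in FOXC1 KO it stood below DUSP3 with no overlap. With canonical transcript lengths DUSP10 was again below DUSP3 in FOXC1 KO. In control its mean was only slightly above that of DUSP3 (65.3 and 64.5), and the control libraries of the pair overlapped with these lengths. The size of the lead of DUSP10 in control thus depended on the length used. DUSP4 and DUSP7 exchanged places with canonical lengths in both groups. DUSP5 and DUSP6 were at 3.41 and 3.28 in control and 4.77 and 4.17 in FOXC1 KO.

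Sprouty genes were called in both directions. SPRY4, on chr5:141689992-141706020, was at 13.1, 11.7 and 13.4 CPM in control and at 17.5, 17.96 and 15.8 CPM in FOXC1 KO. It rose from 12.7 ± 0.92 to 17.1 ± 1.13 CPM without overlap (log2 fold change 0.43, SE 0.10, adjusted p = 0.00134), although without control replicate 2 it was under the fold threshold at 0.36. SPRY1, on chr4:124317950-124324915, was at 6.91, 7.21 and 6.996 CPM in control and at 4.73, 4.84 and 4.84 CPM in FOXC1 KO. It fell from 7.04 ± 0.15 to 4.802 ± 0.065 CPM, also without overlap (log2 fold change -0.55, SE 0.12, adjusted p = 0.000885). SPRY2 was at 21.7, 19.04 and 19.4 CPM in control and at 25.3, 21.1 and 22.3 CPM in FOXC1 KO, and the groups overlapped (log2 fold change 0.19, 95% interval -0.00086 to 0.38, adjusted p = 0.128). SPRED1 passed the adjusted p only (log2 fold change 0.27, adjusted p = 0.0145), and SPRED2 and SPRED3 had log2 fold changes of -0.03 and 0.0019. On the scale of CPM per kilobase, SPRY4 and SPRY1 overlapped in control, at 1.94 and 1.78, and were apart in FOXC1 KO, at 2.61 and 1.21. With canonical transcript lengths SPRY4 was also the higher in FOXC1 KO, at 3.48 against 1.84.

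Among the other feedback genes, ERRFI1 rose and SOCS3 fell. ERRFI1 encodes MIG6, an inhibitor of the EGF receptor family, and lies on chr1:8064464-8086369. It was at 40.6, 44.4 and 47.0 CPM in control and at 87.8, 71.6 and 80.5 CPM in FOXC1 KO, with every FOXC1 KO library well above control. The means were 44.03 ± 3.20 and 79.95 ± 8.14 CPM (SD, n = 3 each), a 1.81-fold difference (log2 fold change 0.86, SE 0.08, adjusted p = 2.73e-09). SOCS3, a suppressor of cytokine signalling through JAK and STAT, lies on chr17:76352859-76356158. It was at 12.0, 10.7 and 12.2 CPM in control and at 8.96, 8.52 and 9.18 CPM in FOXC1 KO. The groups did not overlap (log2 fold change -0.39, SE 0.11, adjusted p = 0.00537), but the fold change lay at the threshold, and the call was lost without control replicate 1 (-0.38), control replicate 3 (-0.36) or FOXC1 KO replicate 2 (-0.36). PHLDA2 passed the adjusted p only (log2 fold change -0.30, adjusted p = 0.00649), and PHLDA1 and SOCS2 had log2 fold changes of 0.14 and -0.15.

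The RAS proteins that feed the cascade showed no called difference. NRAS was at 248, 254 and 255 CPM in control and at 253, 233 and 273 CPM in FOXC1 KO. The FOXC1 KO values spread around those of control, with a log2 fold change of 0.0034 and a 95% interval from -0.14 to 0.15 (adjusted p = 0.977). HRAS had a log2 fold change of -0.19 (adjusted p = 0.0697). Of the GTPase activators that switch RAS off, NF1 had a log2 fold change of 0.013, and RASA1 went from 41.0 ± 1.79 to 53.0 ± 2.67 CPM (log2 fold change 0.37, adjusted p = 0.000552), short of the fold threshold. Exons of RASA1 and CCNH on the other strand overlap by up to 438 bases. In all, exons of 14 members overlap those of another gene of the table, IER3 and ETV5 among the called, and their counts are uncertain to that extent.

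The cascade between RAS and these targets had a share of called genes near the background. Of 24 tested genes of the ERK cascade core, 2 were called higher and 1 lower (12.5%, against 16.0% of all genes), with a median log2 fold change of 0.078. SRF, the serum response factor that binds the CArG box, rose from 55.5 ± 4.21 to 74.7 ± 4.29 CPM (log2 fold change 0.43, adjusted p = 8.49e-05), and RASA2, a further RAS GTPase activator, from 14.996 ± 1.86 to 21.1 ± 1.47 CPM (log2 fold change 0.49, adjusted p = 0.000344). KSR1, a scaffold of the cascade, fell from 3.46 ± 0.59 to 1.70 ± 0.12 CPM (log2 fold change -1.02, adjusted p = 6.86e-05). Of 16 tested genes of the JNK and p38 branch, 1 was called higher and 1 lower (12.5%, against 16.0% of all genes). MAP2K6, a kinase of p38, was lower (9.98 ± 0.22 to 6.04 ± 0.22 CPM, log2 fold change -0.72, adjusted p = 9.75e-06). MAPK10, which encodes JNK3, was higher at a low level (0.21 ± 0.11 to 1.08 ± 0.18 CPM, log2 fold change 2.36, adjusted p = 1.13e-05).

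Of 21 tested leucine zipper and ETS factors outside the list, 3 were higher and 3 lower (28.6%, against 16.0% of all genes). Their median log2 fold change was -0.05. BATF, a dimer partner of JUN proteins, fell from 7.53 ± 1.23 to 3.06 ± 0.60 CPM (log2 fold change -1.28, adjusted p = 1.36e-07). CREM was higher (log2 fold change 0.53) and ETV7 lower (log2 fold change -0.64).

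Of 20 tested early response genes outside the list, 6 were higher and 2 lower (40.0%, against 16.0% of all genes). Their median log2 fold change was 0.20. Like the other lists, this one was chosen with earlier results of these data known, so its share is a description only. CTGF and CYR61, matrix proteins induced early by serum, rose 1.04 and 0.76 on the log2 scale, from 63.8 ± 1.81 to 131 ± 5.92 CPM and from 458 ± 13.5 to 776 ± 48.8 CPM. MYC rose from 47.6 ± 1.83 to 79.3 ± 1.94 CPM (log2 fold change 0.74, adjusted p = 5.36e-09), and KLF4 fell from 54.2 ± 2.60 to 32.5 ± 1.90 CPM (log2 fold change -0.74, adjusted p = 2.38e-08).

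Genes known as outputs of AP-1 and ERK had the highest median of these lists, 0.46 over 17 tested. Of the 17, 9 were higher and 1 lower (58.8%, against 16.0% of all genes). This list was also chosen with earlier results of these data known, so the share describes these genes and is not a test. IL8 (now CXCL8), a chemokine gene with an AP-1 site, rose from 4.13 ± 0.72 to 14.1 ± 1.619 CPM (log2 fold change 1.76, adjusted p = 8.47e-12). VEGFA rose from 95.4 ± 5.35 to 191 ± 4.99 CPM (log2 fold change 1.004), IL6 from 32.4 ± 1.98 to 63.1 ± 3.28 CPM (log2 fold change 0.96) and PLAUR, the urokinase receptor, from 37.5 ± 1.44 to 66.3 ± 3.49996 CPM (log2 fold change 0.82). Of 9 heat shock genes, which respond to handling stress, 7 were tested. Called higher were 0 and lower 1 (14.3%, against 16.0% of all genes), HSPE1 (230.0 ± 14.2 to 164 ± 6.08 CPM, log2 fold change -0.48). The adjusted p alone was passed by 4 of the 7 (57.1%, against 29.4%). The summed level of the 9 genes was 6960.5 to 7242.7 CPM in control and 7066.9 to 7427.4 CPM in FOXC1 KO, and the ranges overlapped. A difference in handling was not tested.

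**Figure D4:**
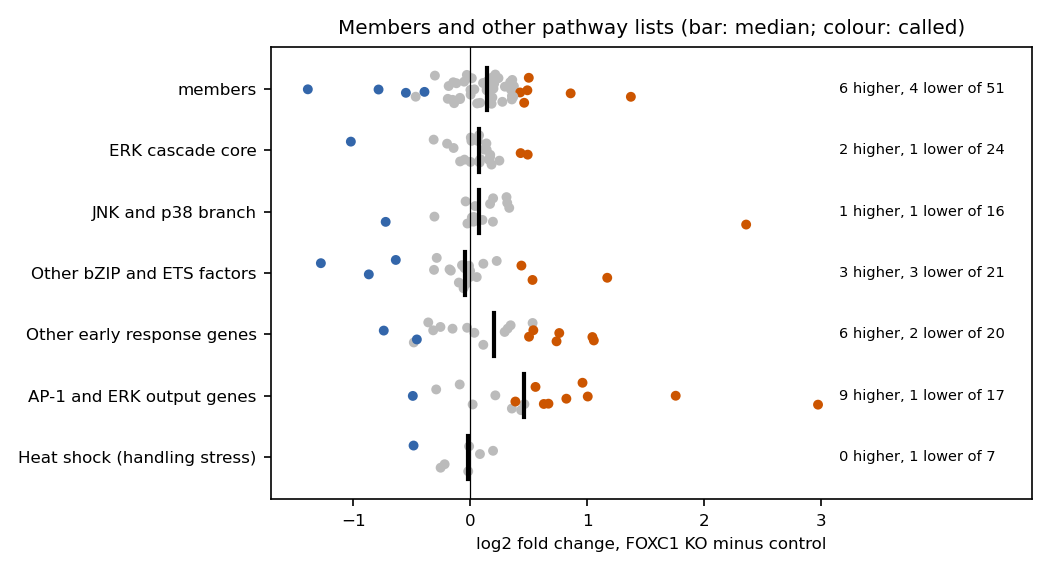
Log2 fold change (FOXC1 KO minus control, horizontal axis) of each tested gene (points) in the studied list (members) and the other pathway lists (rows), with called genes coloured and a bar at each list's median. The medians are 0.14 for the studied genes, 0.078 for the ERK cascade core and 0.46 for the AP-1 and ERK output genes, beside -0.00084 for all genes.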

How the data were processed

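RNA-seq of J82 cells had been made with a poly(A) mRNA kit from TRIzol RNA and read as 75-bp pairs. The authors aligned reads to hg19 with STAR and deposited raw counts per gene, assigned by featureCounts to GENCODE v19 genes without pooling replicates. Tool versions and the strand and multi-mapping settings are not given in the sources used here. Groups came from the labels, and 0 columns of other samples were in the table.

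Counts were fitted in R 4.3.3 with edgeR 4.0.16 (filterByExpr, TMM, robust quasi-likelihood F test, group as the only term) and adjusted by Benjamini-Hochberg over 15647 genes. Called genes had a fold change over 1.3 with an adjusted p under 0.05. SE, 95% intervals and fold changes are from that fit, and ± is the SD of CPM. With 3 libraries against 3, the smallest p an exact permutation test can give is 0.1, which FOXC1 reached. DESeq2 1.42.0, scaling, filters, a replicate block, thinning and leaving out each library were alternatives. Symbols, coordinates and exon lengths came from GENCODE v44 lifted to GRCh37, the assembly of hg19, matching 96.1% of rows by identifier. Merged exon lengths take in all isoforms, so levels between genes depend on the annotation.

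The members and lists were chosen with earlier results of these data known. Values in every library are given for called members and for FOS, JUN, EGR1, DUSP6, SPRY2, SPRY4 and NRAS whatever their result, other members by counts, ranges or a value, and at most 4 called genes, smallest p first, for each pathway list, except that some results are not reported here. The promoter motif TGACATC was added after the sequences had been seen. DNA reads, FOXC1 protein and the other assays of the study were not analysed here.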

Additional observations from a re-analysis of the deposited data

How the results depend on the processing

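All 10 called members were kept with DESeq2, with RLE size factors, with library size alone, with no filter on low counts and after thinning to the smallest library. With a mean of at least 50 counts, BTG2 and MAPK10 were no longer tested. The 1 AP-1 and ERK output gene called lower was not called with DESeq2, without control replicate 1 or without FOXC1 KO replicate 1. Libraries with the same number did not deviate together (correlations of deviations -0.027, -0.072 and 0.050), and with a replicate block 6 members were higher and 4 lower, with all 10 calls kept. Without a fold threshold, 17 members were higher, and 4605 genes were called in place of 2497. With a fold change over 2, 1 member was higher, 1 was lower and 637 genes were called. With edgeR's test against a fold change of 1.3 (glmTreat), 2 members were higher (IER3 and ERRFI1), 2 were lower and 1010 genes were called. These changes follow from the threshold. Leaving out a library gave 6 to 9 members higher, 3 to 4 lower and 2347 to 2639 genes called, and ELK3, RASA1, MAFF, DUSP4 and DUSP6 were each called higher in at least 1 of these fits. Without FOXC1 KO replicate 2, PHLDA2 was called lower and SOCS3 was not. The median log2 fold change of the tested members was 0.11 to 0.17 over all alternatives. FOXC1 was 0.25 to 0.35 higher on the log2 scale when a library was left out, with a highest adjusted p of 0.0827. The sign of EGR1 turned without FOXC1 KO replicate 2 (-0.0048, range -0.0048 to 0.22). That of NRAS turned with library size alone (-0.0049), with a mean of at least 50 counts (-0.0099) and when libraries were left out (-0.0608 to 0.0618). The cause was not tested.

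The depth limits the genes with means under 1 CPM: FOS, EHF, DUSP2 and SPRED3 had intervals of over 1 on the log2 scale, and 5 members were not tested at all.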
